A study of Mus musculus with 6 samples.

Results

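C1qa, C1qb and C1qc encode the 3 polypeptide chains of complement component C1q, and their raw counts were followed through 6 mouse tissue sections imaged by Xenium in situ hybridization, a method that reads single transcripts in place by cycles of fluorescent probe detection. The genes were picked out by name, with no limit on a measured value, and they are 3 of the 5294 genes carried by either of the study's panels and of the 233 genes carried by both. The study mapped the neighborhoods of maturing red cells in blood-forming organs of mice and humans, and the sections used here came from wild-type mice. One 5 µm section was imaged per condition: E13.5 fetal liver, E14.5 fetal liver, bone marrow on postnatal day 8 (P8), bone marrow at 89 weeks (aged), adult spleen without treatment and spleen of mice given phenylhydrazine (PHZ, 40 mg/kg), a compound that destroys circulating red cells. The study gave PHZ in repeated injections of that dose. The E14.5, P8 and both spleen sections were read with a panel of 477 genes, and the E13.5 and aged sections with another of 5050 genes. The PHZ-treated and untreated spleens shared a slide, as did the E14.5 liver and P8 marrow, and the E13.5 liver and aged marrow. With 1 section per condition no difference between conditions could be tested, every interval given is an exact 95% interval that covers counting error only, and no biological spread is known.

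C1q is the recognition unit of the C1 complex, which starts the classical complement pathway after C1q binds antibody on a target, and it also binds dying cells and aids their removal by phagocytes. Each C1q molecule is built from A, B and C chains in equal number, each with a collagen-like stem and a globular head. Unlike most complement proteins, which the liver secretes, C1q is made mainly by tissue macrophages, including the macrophages at the center of erythroblastic islands, which take up the nuclei that red cell precursors expel, and the red pulp macrophages of the spleen, which clear old red cells.

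The 3 genes lie next to each other on mouse chromosome 4 in the order C1qb, C1qc, C1qa. In RefSeq on GRCm38.p6, C1qb spans chr4:136880126-136886200, C1qc chr4:136889801-136892936 and C1qa chr4:136895916-136898844. Only 3600 bases separate C1qb from C1qc and 2979 bases separate C1qc from C1qa, so that the whole cluster covers 18719 bases. To show what lies before these neighbors, the RefSeq promoters of C1qb (chr4:136886151-136886450, minus strand) and C1qc (chr4:136892865-136893164, minus strand) are shown (that of C1qa was not analysed here), each from 250 bases before the listed start of the transcript to 50 bases after it, with matches to GAGGAA (the core of PU.1 sites, TTCCTC on the other strand) and TGCTGA (a MAF half-site) in capitals.
C1qb: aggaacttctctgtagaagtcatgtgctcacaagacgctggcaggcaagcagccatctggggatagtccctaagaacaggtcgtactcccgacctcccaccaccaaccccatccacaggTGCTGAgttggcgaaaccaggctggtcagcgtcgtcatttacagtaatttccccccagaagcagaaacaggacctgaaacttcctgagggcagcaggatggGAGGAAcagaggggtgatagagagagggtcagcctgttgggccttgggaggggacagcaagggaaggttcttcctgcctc
C1qc: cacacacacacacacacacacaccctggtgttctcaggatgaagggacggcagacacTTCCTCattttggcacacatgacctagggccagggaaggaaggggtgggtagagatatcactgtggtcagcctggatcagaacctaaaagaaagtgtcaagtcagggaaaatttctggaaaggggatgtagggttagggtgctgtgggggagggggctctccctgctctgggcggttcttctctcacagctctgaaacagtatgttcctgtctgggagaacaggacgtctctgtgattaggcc
The C1qb promoter held TGCTGA with its first base 131 bases before the start and GAGGAA with its first base 30 bases before it. In the C1qc promoter, GAGGAA was found on the opposite strand, 193 bases before the start. Neither window matched the interferon response element, also searched for on both strands. None of the matches overlapped another. These letters are common, since among 32851 RefSeq mouse promoters of the same length 28.3% held GAGGAA, 19.5% TGCTGA and 3.44% the interferon response element.

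After removal of cells with fewer than 5 detected genes, the sections held 5254 (E13.5) to 140707 (aged) cells with a median of 62 (aged) to 191 (E13.5) gene counts per cell. Pairs of sections shared 0 to 6 cell names. The labelled tissues carried their markers: the hepatocyte list, led by Afp at E13.5 and Ambp at E14.5, reached 16110 and 48334 CPM (counts scaled to a total of 1000000 gene counts) in the livers of E13.5 and E14.5, the neutrophil list 39997 CPM in P8 and 39588 CPM in aged marrow, and the T cell list 29295 CPM in untreated and 6508 CPM in PHZ-treated spleen. The erythroid list stood at 31843 CPM in untreated and 247165 CPM in PHZ-treated spleen. The P8 section also held cells with cartilage (4192) and skeletal muscle (3093) markers, and the aged marrow had been freed of bone in thick gelatin slices before embedding, a preparation that the E13.5 liver did not share. C1q stood far above the noise of the assay, as even C1qa in E14.5 liver had 245 times the counts of the brightest negative control probe.

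Summed over the 3 chains, C1q made up 36848 CPM of the untreated spleen, 27586 CPM of the PHZ-treated spleen, 7369 CPM of P8 marrow and 6599 CPM of E14.5 liver on the 477-gene panel. On the 5050-gene panel it reached 3066 CPM in aged marrow and 2008 CPM in E13.5 liver. A CPM value depends on which other genes a panel holds, so values of the 2 panels stand side by side only. Spleen was the richest source, with C1qb the 16th, C1qc the 23rd and C1qa the 26th most counted gene of 477 in the untreated section. Within sections the level was uneven. In 500 µm squares with at least 200 C1q counts it ran from 18911 to 67729 CPM in untreated spleen and from 12950 to 46371 CPM in PHZ-treated spleen, from 3986 to 20168 CPM in P8 marrow and from 4878 to 10393 CPM in E14.5 liver, so neighbors in this order overlapped within each pair of slide mates.

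**Figure D1:**
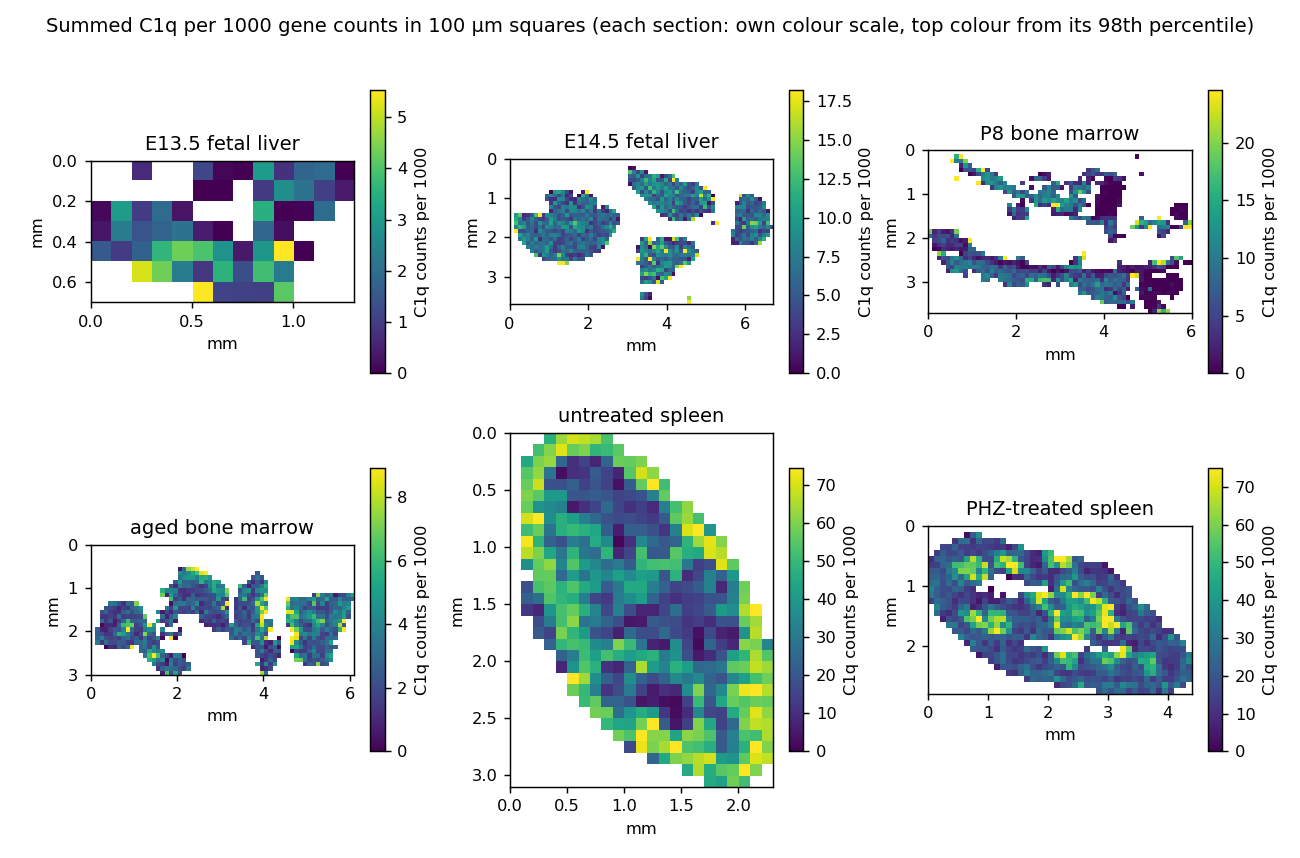
Each panel maps 1 section in 100 µm squares (axes in mm) colored by C1q counts (C1qa + C1qb + C1qc) per 1000 gene counts, with a color scale of its own whose top is the section's 98th percentile. In untreated spleen C1q was high along the rim and between dark patches, whereas in PHZ-treated spleen it was highest in patches in the interior.

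C1qa counts were 857 in E13.5 liver, 25772 in E14.5 liver, 9838 in P8 marrow, 17321 in aged marrow, 110490 in untreated spleen and 68285 in PHZ-treated spleen. C1qb counts in the same order were 1087, 78080, 24980, 13927, 150481 and 156953. C1qc counts were 837, 34417, 12603, 8750, 120464 and 90074. C1qb led in 5 of the 6 sections, and C1qa led in aged marrow.

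The proportions of the chains differed between sections read with the same probes. In untreated spleen C1qa, C1qb and C1qc made up 29.0%, 39.5% and 31.6% of C1q counts. In PHZ-treated spleen on the same slide the shares were 21.7%, 49.8% and 28.6%, with C1qb at 39.3 to 39.6% (95% interval) in the first and 49.60 to 49.95% in the second. E14.5 liver (18.6%, 56.5% and 24.9%) and P8 marrow (20.7%, 52.7% and 26.6%) leaned further to C1qb. On the larger panel the E13.5 liver had 30.8%, 39.1% and 30.1%, and the aged marrow, imaged beside it, had 43.3%, 34.8% and 21.9%. Aged marrow thus leaned to C1qa, and PHZ-treated spleen, E14.5 liver and P8 marrow to C1qb.

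Chains can be compared with each other only after division by the number of probe sets per gene, 7 for C1qa, 6 for C1qb and 8 for C1qc on the smaller panel and 5 for each on the larger. Per probe set, C1qb exceeded C1qa by 3.53-fold in E14.5 liver, 2.96-fold in P8 marrow, 2.68-fold in PHZ-treated spleen, 1.59-fold in untreated spleen and 1.27-fold in E13.5 liver, and stood at 0.80 of C1qa in aged marrow. C1qc stayed nearer to C1qa per probe set, at 1.17, 1.12, 1.15, 0.95 and 0.98 of it in the same order, but stood at 0.51 in aged marrow. Probe sets may differ in efficiency, which the counts alone do not show, so the ratio between sections of 1 panel is the firmer quantity. Read quality also differed by chain and section. Of transcripts with another C1q transcript within 5 µm, 61.7% (C1qa), 92.7% (C1qb) and 60.5% (C1qc) had a quality score of at least 30 in P8 marrow. The values were 74.3, 85.8 and 77.3% in E14.5 liver, 83.6, 86.5 and 88.6% in untreated spleen and 80.3, 83.1 and 80.8% in PHZ-treated spleen. The part of read quality in the chain shares was not tested.

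The shift between the spleens was present across the tissue. The C1qb share ranged from 37.2 to 42.5% (median 39.7%) over 26 squares of untreated spleen and from 45.6 to 56.9% (median 51.3%) over 40 squares of PHZ-treated spleen, so that the ranges did not overlap. The squares of 1 section are not replicates of the condition. In E14.5 liver the 48 squares ran from 51.4 to 61.6% and in P8 marrow the 39 squares from 40.1 to 62.4%, which contained the whole E14.5 range. Aged marrow squares had 37.2 to 47.6% C1qa, above the 30.04 to 32.00% of the 4 squares of E13.5 liver.

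**Figure D2:**
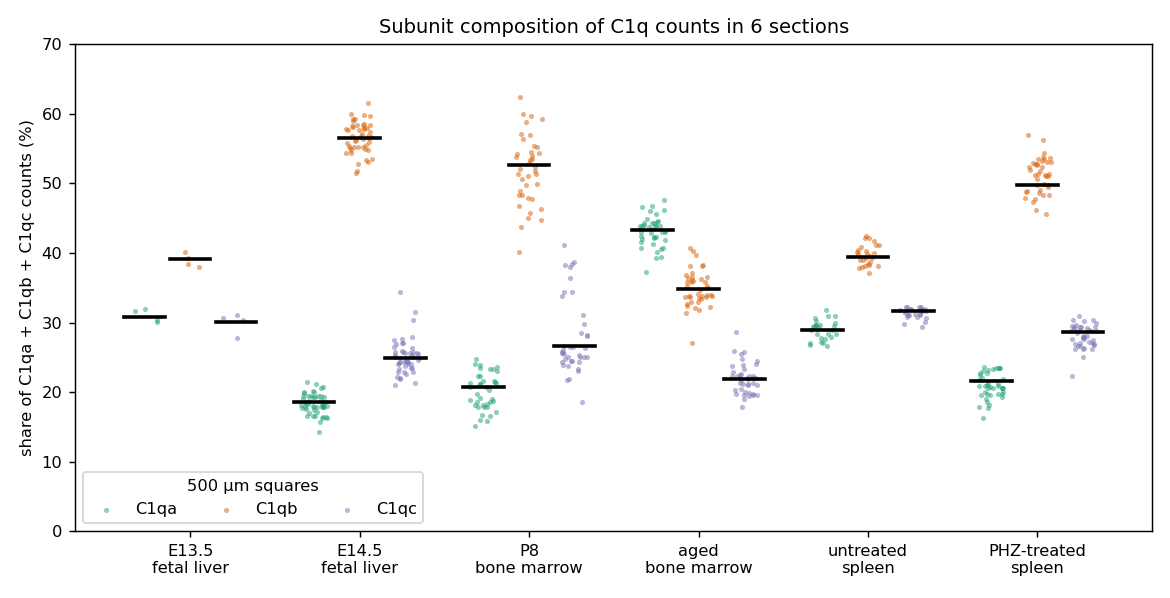
Points give the share of C1qa, C1qb and C1qc in the summed C1q counts (%) of each 500 µm square with at least 200 C1q counts, and black bars the value of the whole section, for the 6 sections. C1qb squares of PHZ-treated spleen (45.6 to 56.9%) all lie above those of untreated spleen (37.2 to 42.5%), and C1qa leads in aged marrow.

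The chain proportions also moved with how much C1q a cell held, in some sections. In PHZ-treated spleen C1qb made up 55.3% of C1q in cells with 1 to 2 C1q counts and 46.4% in cells with 20 or more. In E14.5 liver the share went from 60.8 to 51.1%, in P8 marrow from 53.9 to 45.5% and in aged marrow from 36.2 to 32.4%. In untreated spleen the C1qb share was alike in the poorest (39.2%) and the richest cells (39.1%), but C1qa went from 30.5 to 27.9% and C1qc from 30.4 to 33.0%, with intervals that did not overlap. The intervals of E13.5 liver overlapped throughout (39.5% and 41.6%), and those of the first and last bin of aged marrow overlapped too (35.5 to 36.9% and 28.8 to 36.0%, the latter over 24 cells). Even among cells with 20 or more C1q counts, the PHZ-treated spleen stayed above the untreated spleen.

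**Figure D3:**
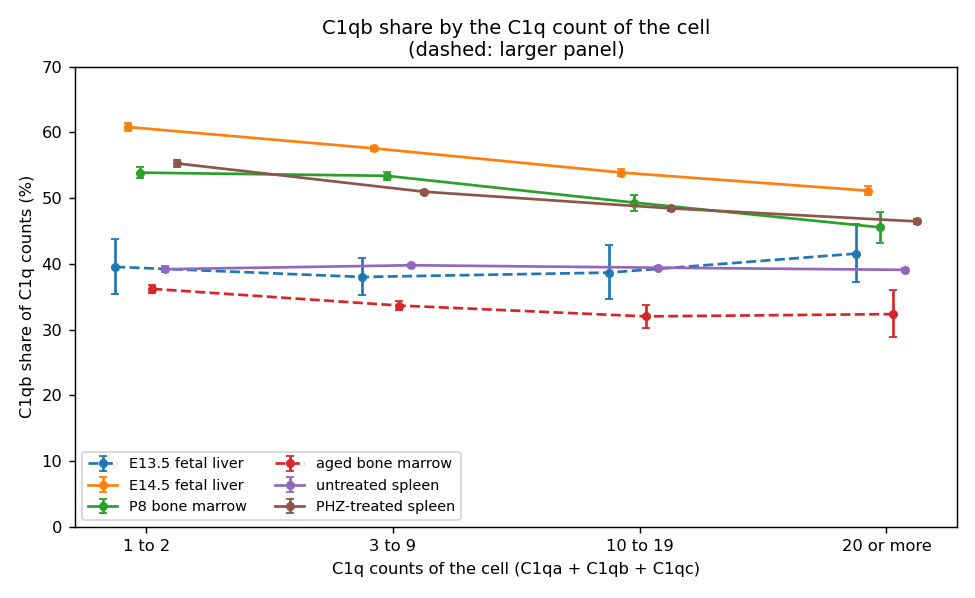
The C1qb share of C1q counts (%) is plotted against the C1q count of the cell in 4 bins, with exact 95% intervals, for the 6 sections (dashed lines mark the 5050-gene panel). It falls from 60.8 to 51.1% in E14.5 liver and from 55.3 to 46.4% in PHZ-treated spleen, and stays near 39% in untreated spleen.

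Transcript tables were at hand for the 4 sections of the smaller panel and showed C1q lying outside any cell. C1qb was overrepresented there in 3 of them: it made up 68.0% of C1q transcripts outside cells in PHZ-treated spleen, 58.3% in untreated spleen and 67.7% in E14.5 liver, each above its share inside cells. P8 marrow differed, with 49.6% C1qb and 27.1% C1qa outside cells. Transcripts with no other C1q transcript within 5 µm, termed lone here, were rare in untreated (2.28%) and PHZ-treated spleen (5.16%) and more frequent in E14.5 liver (9.40%) and P8 marrow (16.0%). Lone transcripts were C1qb in 61.3% of cases in PHZ-treated spleen against 49.6% of the grouped ones, and in 45.9% against 39.5% in untreated spleen. In E14.5 liver the values were 61.1 and 56.3%, and in P8 marrow 51.5 and 52.7%. The excess of C1qb among lone transcripts was larger in PHZ-treated than in untreated spleen.

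A cell was called C1q-positive when it held at least 3 C1q counts. This held for 36.0% of cells in untreated spleen (38973 cells), 35.2% in PHZ-treated spleen (33235), 12.8% in E14.5 liver (14983), 11.5% in P8 marrow (5791), 5.73% in E13.5 liver (301) and 2.90% in aged marrow (4077). The top 1% of cells carried 36.0% of C1q counts in E13.5 liver, 26.5% in aged marrow, 20.3% in E14.5 liver, 15.9% in P8 marrow, 11.4% in PHZ-treated spleen and 10.3% in untreated spleen. Each fetal liver was thus more concentrated than the marrow on its slide, although at full depth a larger share of its cells was C1q-positive. In cells with at least 50 gene counts, thinned to 50, the C1q-positive share was 1.03% in E13.5 liver (4866 cells) and 1.25% in aged marrow (82519 cells), the reverse order. It was 4.47% in E14.5 liver and 3.74% in P8 marrow.

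All 3 chains were found together in 70.8% of C1q-positive cells of untreated spleen, 59.5% of PHZ-treated spleen, 52.2% of E13.5 liver, 51.3% of E14.5 liver, 43.9% of P8 marrow and 38.9% of aged marrow. In cells with at least 50 gene counts, thinned to 50, the values were 53.8, 44.9, 33.4, 38.7, 32.8 and 28.1% in the same order. This left out 388 shallower cells in E13.5 liver and 58188 in aged marrow, so the sections kept unequal parts of their cells. The 2 fetal livers changed places under thinning, and the order was otherwise the same. These livers were read with different panels, so 50 gene counts hold unlike amounts of C1q (2008 CPM in E13.5 and 6599 CPM in E14.5 liver). Thinning therefore does not put sections of different panels on an equal footing. With C1q counts held at exactly 5 per cell, the 3 chains met in 64.2% of cells in untreated spleen, 50.8% in PHZ-treated spleen, 50.2% in P8 marrow, 49.9% in aged marrow, 46.6% in E14.5 liver and 14 of 34 cells (41.2%) in E13.5 liver. The marrows then no longer stood below the livers, and their intervals (46.6 to 53.8% and 45.5 to 54.3%) contained the value of PHZ-treated spleen. Of cells with at least 10 C1q counts, 98.5% in untreated spleen, 94.5% in PHZ-treated spleen, 93.2% in E14.5 liver, 91.2% in P8 marrow, 93.8% in aged marrow and 57 of 60 cells in E13.5 liver had all 3. High shares are largely built into this choice, since a cell with many C1q counts seldom misses a chain. How often draws at each section's chain shares alone would give all 3 was not computed, at 10 or at 5 counts.

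The missing chain followed the section's proportions. Among C1q-positive cells, C1qb and C1qc without C1qa were found in 23.8% of E14.5 liver, 25.5% of P8 marrow and 20.9% of PHZ-treated spleen, against 11.4% of untreated spleen and 8.36% of aged marrow. C1qa and C1qb without C1qc led in aged marrow, at 28.2%. Cells with C1qa and C1qc but no C1qb made up 1.57% in E14.5 liver, 13.3% in E13.5 liver and 14.8% in aged marrow.

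The chains predicted each other's presence. After thinning to 50 gene counts, C1qb was seen in 58.5% of E14.5 liver cells with C1qa and in 10.4% of those without it. In untreated spleen the values were 64.7 and 24.3%, in PHZ-treated spleen 68.0 and 30.1%, in P8 marrow 44.3 and 12.6%, in E13.5 liver 31.0 and 2.58% and in aged marrow 23.0 and 3.83%. Genes of other cells did not separate cells in this way in the E14.5 liver, where Slc4a1, the anion exchanger of the red cell membrane, was seen in 90.3% of cells with and 88.1% of cells without C1qb, and Kdr, a receptor of endothelial cells, in 6.76 and 6.42%. In PHZ-treated spleen Slc4a1 was rarer in cells with C1qb (49.3 against 68.4%). It was more frequent in them in untreated spleen (12.4 against 5.63%) and in P8 marrow (76.3 against 61.9%).

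The transcripts of the chains also lay together within tissue. In E14.5 liver 88.2% of C1qa and 89.7% of C1qc transcripts had a C1qb transcript within 5 µm, compared with 33.5% of Slc4a1 and 29.97% of a 1 in 50 sample of all other transcripts. The values for C1qa and C1qc were 75.8 and 77.2% in P8 marrow, 94.1 and 95.2% in untreated spleen and 92.4 and 92.7% in PHZ-treated spleen, where other transcripts reached 31.1, 64.8 and 61.4%. Slc4a1 was not apart from the chains everywhere, since 89.9% of its transcripts in untreated spleen lay within 5 µm of C1qb, beside 45.7% in P8 marrow and 55.0% in PHZ-treated spleen. Cd5l, a secreted macrophage protein, lay as close to C1qb as the chains themselves in E14.5 liver (87.9%) and untreated spleen (94.8%).

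C1q counts were next assigned to cells by marker genes. A cell took the class whose list of marker genes was most enriched in it, with C1q left out of the lists, at least 3 list counts and an enrichment of at least 2. Enrichment was the list's share of the cell's counts over its share of the section's counts, both without C1q. Each section thus had an entry limit of its own. Cells with macrophage markers held the most C1q per cell in each of the 6 sections: 12.2 counts in untreated spleen, 9.77 in PHZ-treated spleen, 6.89 in E14.5 liver, 4.36 in P8 marrow, 6.79 in E13.5 liver and 3.54 in aged marrow. When an enrichment of at least 4 was required, the spleens could no longer be ordered, at 12.9 counts (12.4 to 13.4) over 232 cells of untreated and 13.1 (13.0 to 13.3) over 2107 cells of PHZ-treated spleen. Among the lowest classes were hepatocyte-marker cells, at 0.0749 counts per cell in E13.5 liver and 0.220 in E14.5 liver, and cartilage-marker cells of P8 marrow, at 0.0344.

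The same contrast held for the C1q-positive call, which 73.7% of macrophage-marker cells (median 142 gene counts) and 1.73% of hepatocyte-marker cells (median 161) met in E14.5 liver. In P8 marrow it was met by 57.3% of macrophage-marker and 0.143% of cartilage-marker cells. In the spleens the call was less selective, as 21.0% of T cell-marker cells met it without treatment (median 81) and 38.2% after PHZ (median 80), beside 79.0 and 75.9% of macrophage-marker cells (medians 104 and 94). The entry limit followed the T cell list, at 29295 CPM without treatment and 6508 CPM after PHZ, so 21.0 and 38.2% belong to unlike classes. T cells are not a known source of C1q, so a C1q-positive spleen cell is not necessarily a cell that makes C1q. No erythroid class formed in E14.5 liver, where the erythroid list itself took 403967 CPM.

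The share of the tissue's C1q that fell in the macrophage class differed widely. It was 58.3% in E13.5 liver and 52.1% in E14.5 liver, 33.8% in P8 marrow, 21.1% in aged marrow and 24.1 and 23.9% in untreated and PHZ-treated spleen. These shares do not rest on 1 limit, since the limit followed each section's macrophage list. That list stood at 2069 CPM in E13.5 liver, 12159 CPM in E14.5 liver and 63410 CPM in untreated spleen. A spleen cell therefore needed a larger macrophage share to enter the class. The smaller panel held 13 and the larger panel 12 of the 17 list genes. The shares also depended on the height of the limit in 4 sections. At an enrichment of at least 4 the class held 40.8% of C1q in E14.5 liver and 21.1% in P8 marrow, which was then close to the 20.4% of aged marrow. In the spleens the class kept 232 of 7573 cells and 0.784% of C1q in untreated spleen, and 2107 of 7726 cells and 8.77% in PHZ-treated spleen. The rest lay in cells of other classes or of none, and counts drawn in from a neighboring macrophage cannot be told apart from counts of the cell itself. Classes of the same name differed between the spleens, because the entry limit followed each section's list level. The erythroid list stood at 31843 CPM in untreated and 247165 CPM in PHZ-treated spleen, so entry needed a far larger erythroid share after PHZ. In untreated spleen, cells with erythroid markers held 6.35 C1q counts each, and in PHZ-treated spleen 0.683. Neutrophil-marker cells (4.69 and 2.31), NK cell-marker cells (4.12 and 2.84) and hepatocyte-marker cells (5.52 and 3.01) were also lower after PHZ. In the spleens the hepatocyte list was carried by Hp, at 652 of 1044 CPM and 1303 of 1819 CPM, so the class name does not identify hepatocytes there. In the other direction, megakaryocyte-marker cells held 4.53 and 7.47, T cell-marker cells 1.68 and 3.39, and monocyte or dendritic-marker cells 2.27 and 4.29. The T cell list stood at 29295 and 6508 CPM and the monocyte or dendritic list at 49329 and 18110 CPM. After PHZ, these classes therefore took in cells with a smaller share of their markers. None of these per-cell values follows a fixed cell type from one spleen to the other. The higher C1qb share of the PHZ-treated spleen was seen in every marker class formed in both sections, with 38.5 and 48.8% in macrophage-marker cells of the untreated and PHZ-treated spleen, 43.2 and 56.2% in erythroid-marker cells and 38.8 and 45.1% in T cell-marker cells.

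C1q was next set against the T cell genes of the surrounding tissue in both spleens. The squares of 100 µm with at least 2000 gene counts were ordered by the share of T cell list counts, an order chosen after the map of C1q had been seen, and divided within each section into 4 bins of equal size. T cell list counts ran over 10372, 15920, 24990 and 60114 CPM in the bins of untreated spleen and over 576, 1483, 3291 and 21112 CPM in those of PHZ-treated spleen, so that 3 of the 4 bins of the latter lay below every bin of the former. In untreated spleen C1q went from 51358 CPM in the bin poorest in T cell genes, over 45613 and 32802, to 21453 CPM in the richest. In PHZ-treated spleen it went the other way, from 18494 over 21481 and 27143 to 44100 CPM. The opposite orders therefore covered T cell ranges that met only at the richest bin of PHZ-treated spleen, whose C1q level lay between those of the second and the third bin of untreated spleen. C1q per cell ran over 6.29, 4.69, 2.82 and 1.81 counts in untreated and over 2.58, 2.94, 3.62 and 3.96 in PHZ-treated spleen. C1q per square ran over 938, 1050, 734 and 522 in untreated spleen, with its highest value in the second bin, and over 323, 336, 412 and 698 in PHZ-treated spleen.

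Other genes moved across the same bins of the PHZ-treated spleen, where the erythroid list stood at 348514 CPM in the bin poorest and 77788 CPM in the bin richest in T cell genes, beside 56361 and 15329 CPM in untreated spleen. Its part in the C1q order was not tested. Timd4, a receptor for phosphatidylserine on dying cells, was at 24.1 CPM in the poorest and 1485 CPM in the richest, beside 2005 and 4102 CPM in untreated spleen. The mannose receptor Mrc1, a gene of red pulp macrophages, stood at 9386 and 1487 CPM in untreated spleen and at 2978 and 3203 CPM after PHZ. Its bins between reached 3352 and 3523 CPM after PHZ. Cd5l fell over the bins of PHZ-treated spleen, from 4216 to 2797 CPM, while C1q rose, and stood at 5681 and 1146 CPM in untreated spleen. Marco (2234 and 5908 CPM), Siglec1 (129 and 790 CPM) and Adgre1 (1087 and 1385 CPM) were higher in the richest than in the poorest bin after PHZ. The chain proportions kept apart in every bin: C1qb ran from 38.2 to 40.6% in untreated and from 46.5 to 52.8% in PHZ-treated spleen, lowest where T cell genes were richest in both.

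The share of transcripts lying over the nucleus was the same for the 3 chains in E14.5 liver, with 46.3% for C1qa, 46.4% for C1qb and 46.3% for C1qc. It was 48.4, 45.9 and 45.1% in P8 marrow, 42.6, 44.01 and 43.7% in untreated spleen and 31.0, 34.8 and 31.3% in PHZ-treated spleen. C1q was thus less nuclear than most genes in 3 sections. Taken over genes with at least 1000 transcripts in cells, the median gene stood at 54.9% in E14.5 liver, 58.9% in untreated spleen and 50.9% in PHZ-treated spleen, and the chains fell between the 5.86th and the 16.1th percentile. Some other macrophage genes lay as low or nearly so in the untreated spleen, with Cd5l at 44.1% (the 8.87th percentile) and Vcam1 at 46.7% (the 10.6th), while Adgre1 stood at 58.9% (the 50.2th) there. In P8 marrow the median was 48.1% and the chains lay between the 42.3th and the 50.2th percentile.

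Beside the lower value in the PHZ-treated spleen, nuclei covered 34.6% of cell area there and 53.6% in untreated spleen, and the part of these outlines in the C1q shares was not tested. In cells with C1q the nucleus covered 32.8 and 49.5% of the area, and 33.0 and 43.5% of C1q lay over it. All genes together went from 58.9% in untreated to 51.0% in PHZ-treated spleen. C1qb was the most nuclear chain in PHZ-treated spleen and made up 52.6% of C1q over the nucleus and 48.4% in the rest of the cell, while untreated spleen had 39.9 and 39.1%. Cells with at least 10 C1q counts had 50.6% of C1q over the nucleus in E14.5 liver and 50.7% in P8 marrow, above the 42.5 and 45.5% of cells with 3 to 9 and the 46.6 and 44.9% of cells with 1 to 2. The share did not climb steadily with C1q, as in E14.5 liver it was lowest in the middle bin. Both spleens had it highest in the poorest cells, at 47.1, 41.4 and 44.3% in untreated and 36.3, 31.1 and 33.7% in PHZ-treated spleen from the poorest to the richest bin.

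**Figure D4:**
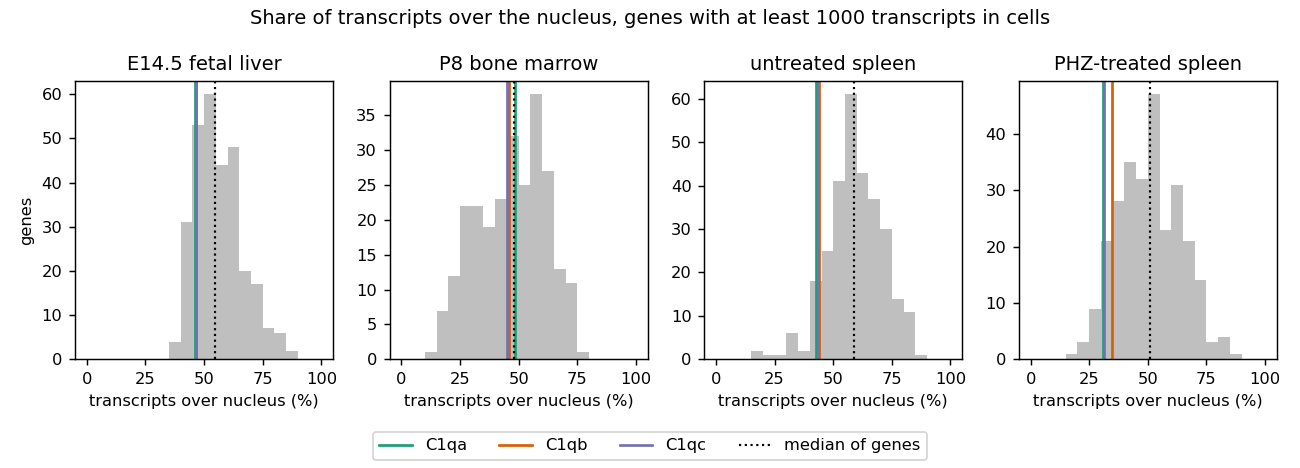
Histograms show the share of in-cell transcripts lying over the nucleus (%) for all genes with at least 1000 such transcripts in the 4 sections with transcript tables, with C1qa, C1qb and C1qc as colored lines and the median gene dotted. The chains lie left of the median gene in E14.5 liver and both spleens and near it in P8 marrow.

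Between slide mates, the chains moved by unequal amounts. In sums over a section, fewer C1q cells and less C1q per cell cannot be told apart. In PHZ-treated over untreated spleen, C1qa had a log2 fold of -0.84 (95% interval -0.85 to -0.82), C1qc of -0.56 (-0.57 to -0.55) and C1qb of -0.08 (-0.09 to -0.07) in CPM, and per cell -0.50, -0.22 and 0.26, so that C1qb changed sign with the scaling. The median of all 472 genes was -0.45 in CPM, and relative to it C1qb stood higher, C1qa lower and C1qc close by. Of all genes, 16.5% were at least 1.5-fold higher and 41.5% at least 1.5-fold lower in the PHZ-treated section, and of the chains only C1qa passed 1.5-fold with C1qc just short of it (0.68 of the untreated level), both downward. The summed C1q was lower by 0.42 in CPM and by 0.08 per cell on the log2 scale.

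In E14.5 liver over P8 marrow the log2 folds in CPM were -0.31 for C1qa, -0.25 for C1qc and -0.06 for C1qb, against a median gene of -0.50, and per cell all 3 were positive (0.17, 0.23 and 0.43). None passed 1.5-fold in CPM, where 22.6% of genes did so upward and 47% downward. In E13.5 liver over aged marrow the folds were -1.10 for C1qa, -0.44 for C1qb and -0.15 for C1qc, against a median gene of 0.00, and per cell 0.41, 1.06 and 1.36. Here only C1qa was past 1.5-fold in CPM, downward, while 29.2% of genes passed upward and 32.4% downward.

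Other complement genes were compared between the same sections. Between the spleens, 2 of the 8 complement genes on the panel were at least 1.5-fold higher and 3 lower after PHZ, beside 16.5% and 41.5% of all genes, with a median log2 fold of -0.36 against -0.45 for all genes. C5ar1, the receptor of the anaphylatoxin C5a, was at 248 CPM in untreated and 920 CPM in PHZ-treated spleen, a log2 fold of 1.89. C3, the central component that C1 activity leads to, was at a log2 fold of -0.997. In E14.5 liver over P8 marrow, 3 of 8 were higher and 5 lower, beside 22.6% and 47% of all genes, with Hc (component C5, made by hepatocytes) at 7.18 and C3 at 2.33. In E13.5 liver over aged marrow, 7 of 21 tested were higher and 10 lower, beside 29.2% and 32.4% of all genes, with Vtn at 6.97, Cfb at 2.87 and C4b, which C1 cleaves next in the pathway, at -6.21 on only 7 counts in the liver. All these calls were made in CPM and depend on it. Per cell in this last pair, C3 (1.03), Cd93 (1.07), Cr1l (1.49) and C6 (0.94, on 7 counts in the liver) also passed 1.5-fold upward. Fcna (-0.64 in CPM, 0.87 per cell) and C3ar1 (-0.79 and 0.72) went from at least 1.5-fold lower to at least 1.5-fold higher. Cd55 (0.32) and C5ar2 (-0.46) no longer passed it downward, so that higher genes then outnumbered lower ones. The per-cell share of all genes past 1.5-fold was not computed.

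Most genes of the island macrophage list stood lower in the treated spleen than in the untreated one, by more than the summed C1q. Of 13 island macrophage genes, 10 were at least 1.5-fold lower in PHZ-treated spleen and 0 higher (median -1.04), beside 41.5% of all genes, among them Cd163, the hemoglobin scavenger receptor (-2.33), Vcam1 (-1.19), an adhesion molecule of island macrophages, and Spic (-1.46), a transcription factor of red pulp macrophages. Of 13 genes on the macrophage list 6 were lower and 0 higher, a share near the 41.5% of all genes, and the median of -0.35 was close to the -0.42 of summed C1q, with Timd4 at -2.82 and Adgre1 (F4/80) at -1.71. These lists are not separate sets, as Adgre1, Cd163, Maf, Siglec1 and Spic were among the lower genes of both. Of 5 genes for uptake of dying cells 1 was lower (median -0.01), while Marco (0.09), Cd5l (-0.08), Cd36 (0.04) and Dnase2a (-0.01), which digests the DNA of engulfed nuclei, stood near C1qb. Per cell Cd5l and Dnase2a changed sign, and all 4 were positive (0.26 to 0.43). Dnase2a is also on the island macrophage list, and Marco, Cd5l and Timd4 are also on the macrophage list. The counts of lower and higher genes above were made in CPM. Per cell, Maf (-0.37), Mrc1 (-0.44) and Nr1h3 (-0.45) fell short of 1.5-fold lower, and Cd68 (0.67) and Folr2 (0.75) of the macrophage list were past 1.5-fold higher. The share of all genes past 1.5-fold per cell was not computed, so the per-cell calls have no share to be set against.

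The genes shared by C1q-positive cells were sought by the ratio of a gene's CPM in C1q-positive to that in all other cells. At least 2-fold ratios were reached by 2.94% of genes with 500 counts in E13.5 liver, 13.6% in E14.5 liver, 11.7% in P8 marrow, 4.7% in aged marrow, 10.3% in untreated spleen and 12.6% in PHZ-treated spleen. Macrophage list genes reached it in 2 of 2, 12 of 12, 12 of 12, 10 of 10, 5 of 12 and 12 of 12 cases in this order, and island macrophage genes in 2 of 2, 9 of 12, 11 of 13, 11 of 11, 9 of 13 and 12 of 13. Complement genes did so in 2 of 5, 1 of 8, 0 of 6, 3 of 14, 1 of 7 and 0 of 6 cases, too few genes to be set against the share of all genes. Genes for uptake of dying cells reached it in 2 of 3, 3 of 5, 3 of 5, 4 of 7, 1 of 5 and 3 of 5.

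The spleens differed in which macrophage genes accompanied C1q. In untreated spleen Mrc1 was 8.75 times, Cd163 7.86 times, Cd5l 7.30 times and the iron exporter Slc40a1 4.69 times as high in C1q-positive cells, and in PHZ-treated spleen they were at 5.34, 3.96, 3.94 and 2.57. In contrast, in untreated spleen Timd4 (0.76), Siglec1 (0.75), a sialic acid receptor of marginal metallophilic macrophages, and Marco (0.94), a scavenger receptor of marginal zone macrophages, were no higher in C1q-positive than in other cells. In PHZ-treated spleen the latter 3 genes were at 7.43, 7.43 and 5.99, and in E14.5 liver at 18.5, 13.5 and 10.8. Distances between transcripts, which do not use cell outlines, gave the same order: 53.5% of Timd4 and 62.3% of Marco transcripts lay within 5 µm of C1qb in untreated spleen, below the 64.8% of other transcripts, and 92.9 and 88.3% in PHZ-treated spleen, above 61.4%. Timd4 was also scarcer after PHZ, with 5656 counts beside 36104. Hbb-bt (2.999) and Slc4a1 (3.91), both of red cells, were enriched in C1q-positive cells of untreated spleen and not of PHZ-treated spleen (0.74 and 0.66).

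**Figure D5:**
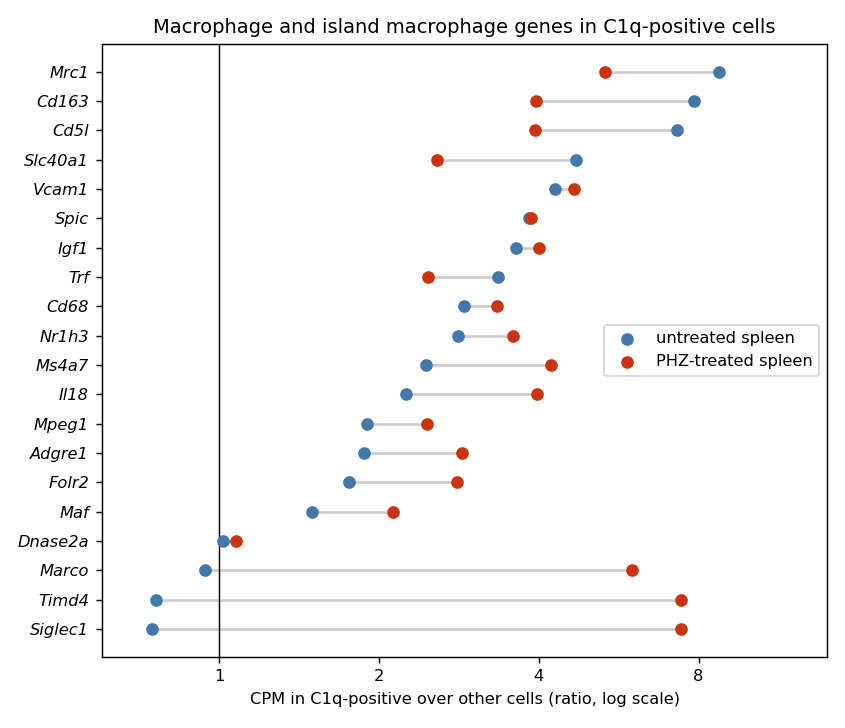
Each row is a gene of the macrophage or island macrophage list, placed by the ratio of its CPM in C1q-positive cells (at least 3 C1q counts) to that in other cells on a log axis, in untreated (blue) and PHZ-treated (red) spleen. Timd4, Siglec1 and Marco lie below 1 in untreated spleen and at 7.43, 7.43 and 5.99 in PHZ-treated spleen.

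The 5 genes whose counts followed C1q most closely over single cells were sought in each section, among genes with at least 500 counts in it. By Pearson correlation of log-scaled counts, given as a description over cells that share a section and its depth, they were the lectin gene Fcna (0.55), Ctss (0.55), Ctsc (0.52), Cd5l (0.52) and Hmox1 (0.45) over the 5254 cells of E13.5 liver. Over the 117323 cells of E14.5 liver they were Cd5l (0.49), Ctss (0.48), Marco (0.47), Adgre1 (0.41) and Timd4 (0.41). Ctss and Ctsc encode lysosomal cathepsins, and Hmox1 encodes the heme-degrading enzyme. The count limit left 647 genes in E13.5 liver, without Adgre1 (259 counts) and Marco (220 counts). The panels also hold different genes, so the nearest genes of sections from different panels cannot be matched gene by gene. In P8 marrow (50523 cells) the selenium carrier Selenop (0.30), Slc40a1 (0.29), Mrc1, Ctss (both 0.28) and Vcam1 (0.27) came first, and in aged marrow (140707 cells) Fcna (0.28), Apoe (0.26), Axl (0.22), a receptor for the uptake of dying cells, Hmox1 and Ctss (both 0.21).

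In the spleens the nearest genes were Slc40a1 (0.56), Vcam1 (0.50), Mrc1 (0.46), Cd5l and the iron carrier gene Trf (both 0.41) without treatment (108327 cells). After PHZ (94492 cells) they were Cd68 (0.42), a lysosomal membrane protein of macrophages, the chemokine Ccl9 (0.40), Slc40a1 (0.39), Vcam1 (0.39) and Mpeg1 (0.37), a pore-forming protein of phagocytes. Slc40a1 and Vcam1 were among the first 5 in both spleens and in P8 marrow, and Ctss in both livers and both marrows. Ctss was not enriched in C1q-positive cells of untreated spleen (ratio 0.86).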

How the data were processed

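Xenium in situ transcript counts from 6 mouse sections, 1 per condition, were taken as deposited. The authors deposited, per section, a cell by gene matrix of raw counts with cell centers and, for 4 sections, a transcript table with a quality score, cell and nucleus assignment (the deposited 0 or 1 flag whose mean is the fraction over the nucleus). Run descriptions name Xenium Onboard Analysis 1.7.1.0 (477 genes, cells as expanded nuclei) and 3.1.0.4 (5050 genes, cells from boundary stains). Outlines and total therefore bear on every per-cell value.

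Cells with at least 5 detected genes were kept, as in the study's methods, leaving 5254 to 140707 cells and 1384754 to 20952120 gene counts per section. Transcripts needed a score of at least 20. Sums per section were scaled to CPM, with exact Poisson or binomial 95% intervals covering counting error only. No test was possible with 1 section per group. Folds were taken between slide mates over genes with at least 100 counts. Shallow cells were left out of thinning to 50 counts (388 cells in E13.5 liver to 58188 in aged marrow). No doublet removal was done. Steps were checked on simulated data. Named genes were the 3 chains, all members of 4 lists (macrophage, island macrophage, complement, uptake of dying cells), the 5 genes most correlated with C1q in each section, and 4 references. The 3 chains were picked by name and without a limit on their values, but they and the lists were chosen with earlier results of these data known. Alternatives were per-cell and per-area scaling, omission of Hbb-bt, stricter cell, quality and class limits, and thinning. Python 3.11.15, numpy 2.4.6, scipy 1.17.1 and pandas 2.3.3 were used. Promoters were RefSeq entries for C1qb and C1qc.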

Additional observations from a re-analysis of the deposited data

How the results depend on the processing

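No paired analysis was possible because each condition had 1 section and no replicate numbers. The log2 fold of summed C1q in PHZ-treated over untreated spleen, -0.42 in CPM, was -0.078 per cell, -0.87 per mm2 and -0.36 with Hbb-bt left out of the total. In E14.5 liver over P8 marrow it reversed from -0.16 to 0.33 per cell and 1.46 per mm2, and was -0.13 without Hbb-bt. In E13.5 liver over aged marrow it reversed from -0.61 to 0.90 per cell and was -0.018 per mm2. The alternative without Hbb-bt was not run there, as the larger panel lacks that gene. Gene totals per cell and tissue per square differ between sections by construction. Which scaling follows the biology was not tested.

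In cells with at least 10 C1q counts the C1qb share was 52.8% in E14.5 liver, 48.5% in P8 marrow, 32.1% in aged marrow, 39.3% in untreated and 47.6% in PHZ-treated spleen. Over the nucleus it was 39.9% in untreated and 52.6% in PHZ-treated spleen. After thinning, all 3 chains were found in 33.4% (E13.5), 38.7% (E14.5), 32.8% (P8), 28.1% (aged), 53.8% (untreated) and 44.9% (PHZ-treated) of C1q-positive cells. Cells with at least 10 C1q counts had 50.6% (E14.5), 50.7% (P8), 44.3% (untreated) and 33.7% (PHZ-treated) of C1q over the nucleus, and a quality score of at least 30 gave 47.3%, 46.7% and 43.9% in the first 3. At an enrichment of at least 4, macrophage-marker cells held 9.41 (E14.5), 5.80 (P8), 12.9 (untreated) and 13.1 (PHZ-treated) C1q counts each. The other 21 values moved by less than their counting interval. The E13.5 liver had 2781 C1q counts in all over 5254 cells, which sets its counting intervals.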
